A study of Mus musculus with 9 samples.

Results

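In all, 10 genes of the machinery by which myoblasts fuse were followed by name through the mRNA data, out of 52780 genes in the deposited table. They were the fusogens Mymk and Mymx, the cadherins Cdh15 and Cdh2, the junctional adhesion molecules Jam2 and Jam3, the receptors Adgrb1 and Adgrb3, and the ferlins Myof and Dysf. All had counts, and 9 of the 10 passed the filter on low counts and were tested. The cells were C2C12, an immortal mouse myoblast line that forms myotubes in culture, collected at day 4 of differentiation, with 3 samples in each of 3 groups. In the si mH2A1.1 group, as in the si mH2A1.2 group, the cells had been given 10 nM siRNA against 1 of the splice isoforms of the histone variant macroH2A1, delivered the day after seeding, at the change to differentiation medium and again during differentiation. The third group, si Ctrl, is labelled wild type by the submitters, without a named siRNA, and the study's tables list a scramble control siRNA. The samples are 1 cell line. The study describes its replicates as biologically independent, and the labels do not say what separates them, so the p-values measure the spread between these cultures of 1 line.

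Myoblast fusion joins mononucleated cells into a multinucleated fibre. Cadherins and junctional adhesion molecules hold the cells in contact, receptors such as the BAI proteins signal to Rac and the actin cytoskeleton, and the membrane proteins Myomaker (Mymk) and Myomixer (Mymx) drive the merging of membranes, with Mymk acting at hemifusion and Mymx at the opening of the fusion pore. Ferlins are calcium-binding membrane proteins, of which myoferlin acts in myoblast fusion and dysferlin in the resealing of injured fibres.

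Totals ranged from 36924252 to 42223108 counts per sample, and 3 counts corresponded to 0.0691 to 0.0825 CPM (counts per 1000000 counts of the scaled library). H2afy, the gene of both macroH2A1 isoforms, had 59.8 ± 3.18 CPM in si Ctrl, 33.2 ± 4.86 CPM in si mH2A1.1 and 45.7 ± 2.20 CPM in si mH2A1.2 (mean ± SD, n = 3). Its fall with si mH2A1.1 passed the test (adjusted p = 0.00331), and the difference with si mH2A1.2 did not (adjusted p = 0.108). The counts sum over both isoforms, so they cannot show which isoform was removed. The muscle identity of the culture was checked on 10 genes of differentiated muscle, whose summed level was 15363 to 22052 CPM in si Ctrl, 15534 to 17040 CPM in si mH2A1.1 and 13037 to 16318 CPM in si mH2A1.2. Myh3 (embryonic myosin) and Acta1 (skeletal actin) were the most abundant of them, and some single genes differed more than the sums.

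With si mH2A1.1, 5 of the 10 muscle genes were above and 5 below si Ctrl by the sign of the fold change, with a median log2 fold change of -0.0045. Of them 1 was called, 10.0% beside 11.1% of all tested genes: Myh1, a fast adult myosin, which rose 2.39-fold from 506 ± 212 to 1213 ± 237 CPM (adjusted p = 0.0378; lost in 6 of the 9 omissions of a sample, up to 0.119 without si mH2A1.1 replicate 3). With si mH2A1.2, 9 of the 10 had a log2 fold change below 0, with a median of -0.61, and 3 fell, which is 30.0% beside 2.35% of all tested genes. They were Myh1 (to 150 ± 45.1 CPM, log2 fold change -1.76, adjusted p = 0.0296), the fast troponin Tnnt3 (1070 ± 190 to 551 ± 105 CPM, -0.96, adjusted p = 0.0280) and desmin, Des (1218 ± 113 to 793 ± 77.6 CPM, -0.62, adjusted p = 0.0466). These calls were lost in 6, 4 and 8 omissions, up to adjusted p values of 0.104 for Myh1 and 0.160 for Des, both without si Ctrl replicate 1, and 0.106 for Tnnt3 without si mH2A1.2 replicate 2. Called marker genes beyond the 2 most abundant of a list were named after their values were seen.

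Other marker lists differed between the groups and are given here because they could move with the fusion genes. The summed level of 5 proliferation genes was 245 to 400 CPM in si Ctrl, 356 to 741 CPM in si mH2A1.1 and 196 to 291 CPM in si mH2A1.2 (Mki67 with si mH2A1.1 against si Ctrl, log2 fold change 0.86, adjusted p = 0.0586; Top2a 0.67, adjusted p = 0.133). Against si Ctrl, edgeR called 0 of the 5 in either knockdown, beside 11.1% and 2.35% of all tested genes. This depended on the tool for the macroH2A1.1 knockdown, where DESeq2 called 3 of the 5 and limma-voom 0. There all 5 were above si Ctrl by sign, and 4 had an unadjusted p under 0.05 in edgeR. For the macroH2A1.2 knockdown all 5 were below si Ctrl by sign, and DESeq2 called 0. Between the knockdowns all 5 were called, higher with si mH2A1.1, 100% beside 22.5% of all tested genes. Their median log2 difference was 1.18. The calls of Ccnb1, Top2a and Mki67 were lost in 4, 2 and 1 of the 9 omissions of a sample. The highest adjusted p was 0.128, for Ccnb1 without si mH2A1.1 replicate 1. The 6 interferon response genes summed to 6.88 to 8.60 CPM in si Ctrl, 73.3 to 399 CPM in si mH2A1.1 and 6.41 to 10.0 CPM in si mH2A1.2, and all 6 rose with si mH2A1.1 (Oas2 from 0.185 to 99.7 CPM and Ifit1 from 2.76 to 33.4 CPM in the means). These 6 calls are 100% of the list, beside 11.1% of all tested genes. That of Mx1 was lost in 4 omissions, up to 0.0740 without si mH2A1.1 replicate 3, and the others were kept in all. The 6 reserve cell genes summed to 134 to 178 CPM, 107 to 145 CPM and 191 to 270 CPM in the same order of groups, mostly through Cd34, with means of 102, 64.1 and 170 CPM. Their call against si Ctrl went the other way from the sum: Msc (musculin), a repressor of myogenic factors, rose 5.54-fold with si mH2A1.1, from 2.57 ± 0.618 to 14.2 ± 6.80 CPM (adjusted p = 0.00777). That is 16.7% of the list beside 11.1% of all tested genes. Pax7, a satellite cell factor, had means of 3.00, 4.69 and 1.87 CPM and did not pass against si Ctrl. Between the knockdowns all 6 were called, 100% beside 22.5%, Msc and Pax7 higher and 4 lower with si mH2A1.1. The calls of Id1, Id3 and Cd34 were lost in 7, 4 and 2 omissions, up to adjusted p values of 0.132, 0.0871 and 0.0610. The 5 fibroblast genes summed to 2412 to 3755 CPM, 503 to 1329 CPM and 6965 to 9924 CPM, mostly through Col1a1, with means of 2943, 566 and 7822 CPM. The study counts Col1a1 among the most expressed genes of these myotubes. With si mH2A1.1, Col1a1 and Lum fell (log2 fold changes -2.38 and -2.74), 40.0% beside 11.1% of all tested genes. Pdgfra (0.11), Dcn (0.06) and Thy1 (-0.18) did not pass. With si mH2A1.2, 0 of the 5 passed, beside 2.35%, and by sign 3 were above and 2 below si Ctrl. Col1a1 lay above every si Ctrl sample there (log2 fold change 1.41, adjusted p = 0.0762). DESeq2 called 1 of the 5 in this comparison. The study reports a rise of Col1a1 in this knockdown, by sequencing and by RT-qPCR. The 6 endothelial, immune and epithelial markers summed to 1.64 to 2.42 CPM over all samples, and Adgre1 and Epcam had at most 1 count in any sample. The part of these differences in the fusion genes' values was not tested. In bulk RNA, fewer cells of a type and less RNA per cell cannot be told apart.

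The members differed in level by orders of magnitude when scaled to length (CPM per kb of annotated exon). The length joins the exons of all transcripts of a gene. For Mymx it is 1027 bases, while its annotated transcripts have 437 to 804 bases. The place of Mymx in the order, here and in the knockdowns, rests on this length. In si Ctrl, Mymk led with 360 ± 67.0 CPM per kb, followed by Cdh15 at 101 ± 31.3 and Mymx at 72.2 ± 17.0, whose samples overlapped. Myof stood next at 34.3 ± 1.22 CPM per kb, apart from its neighbours on both sides. Jam2 at 19.3 ± 1.03, Dysf at 16.3 ± 2.91 and Cdh2 at 15.4 ± 3.44 CPM per kb could not be ordered, since each overlapped the next, and Jam3 was below them at 9.60 ± 1.63. The receptors closed the order, Adgrb3 at 0.0283 ± 0.00655 and Adgrb1 at 0.00480 ± 0.00543 CPM per kb.

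The order was largely kept in the knockdowns. Mymk stood first and Cdh15 next in all 3 groups. Mymx was above Myof in every sample of si Ctrl and si mH2A1.2, whereas in si mH2A1.1 Mymx ranged from 34.8 to 47.4 CPM per kb and Myof from 45.2 to 47.3 CPM per kb, so that they overlapped.

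**Figure D1:**
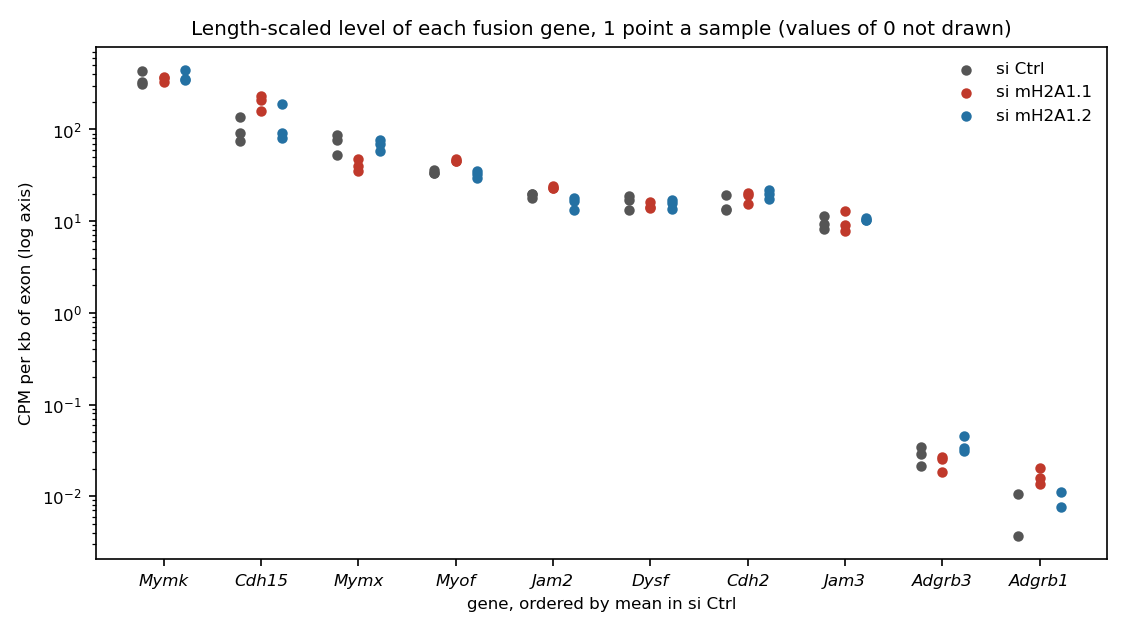
Length-scaled level (CPM per kb of exon, log axis) of the 10 fusion genes, ordered by their mean in si Ctrl, with 1 point a sample and a colour for each siRNA. Mymk lies between 311 and 442 CPM per kb in every sample and the receptors Adgrb3 and Adgrb1 lie below 0.05; 2 of the 9 values of Adgrb1 are 0 and not drawn.

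With si mH2A1.1 against si Ctrl, the fusogen Mymx fell to 0.565 of its control level and the ferlin Myof rose 1.34-fold, and the other 7 tested members did not pass the test. Here and below a gene was called at an adjusted p of 0.05 or less in edgeR's quasi-likelihood test, with the Benjamini-Hochberg adjustment over all 19545 genes tested. Those 2 calls, 1 higher and 1 lower, stand against 11.1% of all tested genes called in this comparison, 6.18% higher and 4.93% lower. The median log2 fold change of the 9 members was 0.05, beside -0.01 over all tested genes. The samples of the groups did not overlap for 4 of the 9 members (Cdh15, Jam2 and Myof above, Mymx below), beside 34.2% of all tested genes.

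With si mH2A1.2 against si Ctrl, 0 of the 9 members passed edgeR's test, beside 2.35% of all tested genes (1.37% higher and 0.982% lower). By DESeq2 and by limma-voom the count was also 0, and 1 member, Jam2, had an unadjusted p under 0.05. Jam2 was also the member whose samples did not overlap, being lower in all 3 knockdown samples, beside 22.5% of all tested genes that did not overlap. The margin was small, since the nearest samples of the groups both rounded to 109 CPM. The members' median log2 fold change was 0.09, beside a median of all tested genes that rounds to 0.

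The direct comparison of si mH2A1.1 with si mH2A1.2 called 3 members, Mymx lower and Jam2 and Myof higher with si mH2A1.1. In this comparison 22.5% of all tested genes were called, 12.0% higher and 10.5% lower. The groups did not overlap for 4 members (Jam2 and Myof above, Mymx and Adgrb3 below), beside 39.7% of all tested genes. The members' median log2 difference was -0.08, beside -0.01 over all tested genes. The comparisons share their samples pairwise and are not independent of each other.

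**Figure D2:**
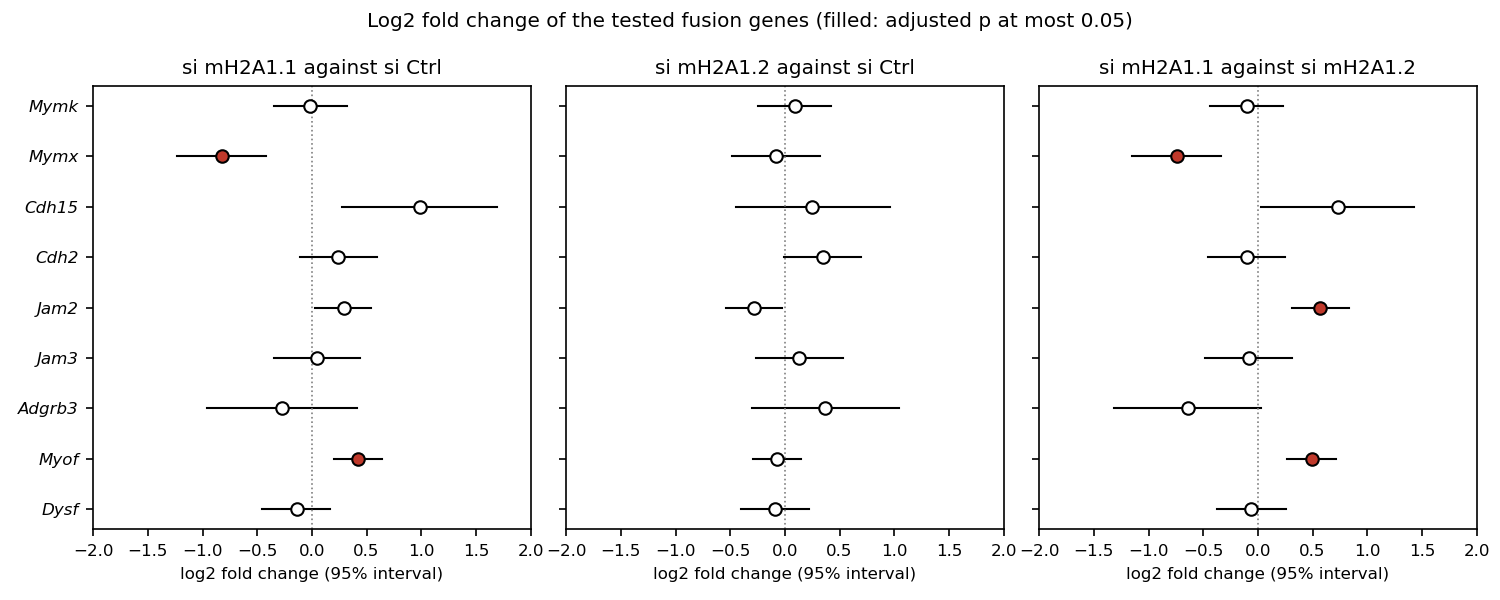
Log2 fold change of the 9 tested fusion genes in the 3 comparisons, with 95% intervals; filled points passed the adjusted p of 0.05. Mymx at -0.82 and Myof at 0.42 are the filled points of si mH2A1.1 against si Ctrl, no point is filled for si mH2A1.2, and Jam2 at 0.57 joins them in the direct comparison.

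Mymk (ENSMUSG00000009214, minus strand of chromosome 2 from 27061636 to 27072179, GRCm38 with GENCODE M21 as for all positions here) encodes the multipass fusogen Myomaker. Its level was 470, 503 and 660 CPM in si Ctrl replicates 1 to 3, 556, 564 and 496 CPM in si mH2A1.1, and 541, 527 and 668 CPM in si mH2A1.2. The 3 groups overlapped throughout. With si mH2A1.1 Mymk differed from si Ctrl by -0.02 on the log2 scale (95% interval -0.35 to 0.32, adjusted p = 0.955), and by 0.09 in si mH2A1.2 (-0.25 to 0.42, adjusted p = 0.841). The first interval spans folds from 0.785 to 1.25, so true folds within these bounds remain compatible with the 3 samples a group.

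Mymx (ENSMUSG00000079471, minus strand of chromosome 17 from 45600971 to 45602102) encodes the micropeptide Myomixer. Of its 4 annotated transcripts, 3 share a coding sequence of 255 bases that lies in 1 exon, at chr17:45601417-45601671, and encodes 84 amino acids. The transcript Mymx-202 has a longer coding sequence of 327 bases. The shared coding sequence is shown because Mymx was the fusogen that fell, with the start and stop codons in capitals, read from the GENCODE M21 transcripts on the minus strand.
Mymx coding sequence: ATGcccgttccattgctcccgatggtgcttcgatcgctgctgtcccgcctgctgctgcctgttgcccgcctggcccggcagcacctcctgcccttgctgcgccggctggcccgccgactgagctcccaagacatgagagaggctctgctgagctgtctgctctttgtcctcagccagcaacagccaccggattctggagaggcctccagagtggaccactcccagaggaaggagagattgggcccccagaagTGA

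The level of Mymx was 54.8, 79.0 and 88.6 CPM in si Ctrl, 41.3, 48.7 and 35.7 CPM in si mH2A1.1, and 59.7, 71.2 and 79.4 CPM in si mH2A1.2. Every si mH2A1.1 sample was below every sample of the other groups, and si Ctrl and si mH2A1.2 overlapped. Mymx fell by 0.82 on the log2 scale with si mH2A1.1 (log2 fold change -0.82 ± 0.18 SE, adjusted p = 0.0221), and its log2 difference between the knockdowns, si mH2A1.1 minus si mH2A1.2, was -0.74 ± 0.18 (adjusted p = 0.0172). With si mH2A1.2 against si Ctrl its log2 fold change was -0.08 (95% interval -0.48 to 0.32, adjusted p = 0.878).

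The call against si Ctrl did not survive every omission of a sample. The adjusted p was 0.0792 without si Ctrl replicate 2, 0.0699 without si Ctrl replicate 3, 0.0788 without si mH2A1.1 replicate 1 and 0.0857 without si mH2A1.1 replicate 3, while the log2 fold change stayed between -1.00 and -0.69 over all 9 omissions. Against si mH2A1.2 the call was lost without si mH2A1.1 replicate 1 or 3 or si mH2A1.2 replicate 2 or 3, at adjusted p values of 0.0550 to 0.0676.

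Set against Mymk within each sample, Mymx was lower with si mH2A1.1 as well. The ratio of Mymx to Mymk in CPM per kb, which needs no scaling between libraries, was 0.171, 0.231 and 0.198 in si Ctrl, 0.109, 0.127 and 0.106 in si mH2A1.1, and 0.162, 0.199 and 0.175 in si mH2A1.2. The si mH2A1.1 samples did not overlap with either other group. The size of the ratio rests on the joined exon lengths, 1027 bases for Mymx and 1511 for Mymk. These are the same in every sample. Ratios of this kind were chosen after the values were seen and are given without a test. Of the 10 differentiated muscle genes, 5 were above and 5 below si Ctrl with si mH2A1.1. Myh1 rose as given above, and the others did not pass. Des and Ckm lay above every si Ctrl sample (log2 fold changes 0.45 and 0.44, adjusted p = 0.0577 and 0.134). Myh3 lay below every si Ctrl sample (-0.54, adjusted p = 0.0753). The rest overlapped with si Ctrl: Atp2a1 (-0.44), Mylpf (-0.28), Tnnt3 (-0.23), Acta1 (-0.08, adjusted p = 0.845), Myh8 (0.07) and Tnnc2 (0.26). Their relation to Mymx was not tested.

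**Figure D3:**
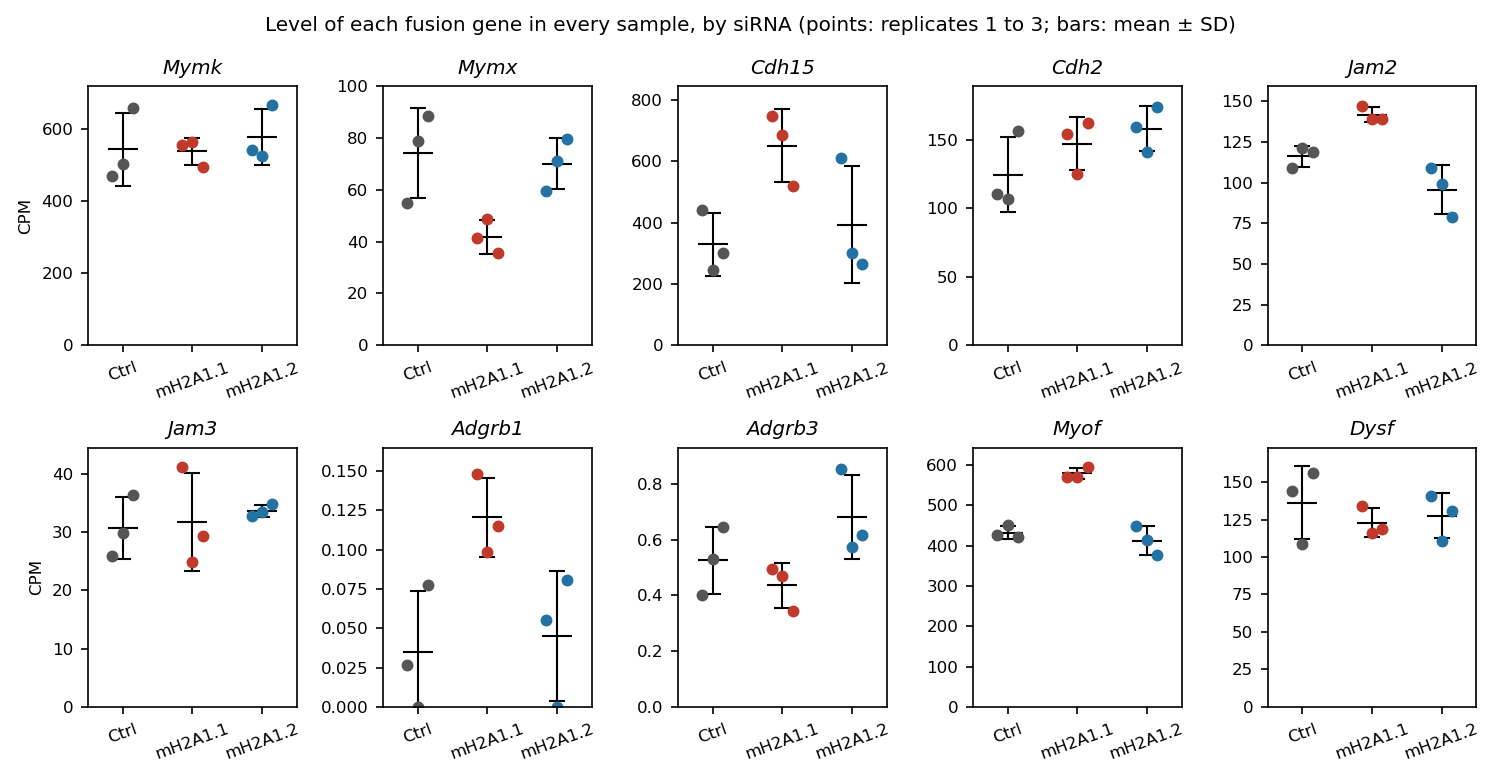
Level (CPM, linear axes from 0) of each fusion gene in the 9 samples, with the replicates as points and the mean ± SD as bars. The si mH2A1.1 points of Mymx, 35.7 to 48.7 CPM, lie below all others and those of Myof, 570 to 596 CPM, above all others. In Cdh15 the replicate 1 sample is the highest of each group, most clearly in si Ctrl and si mH2A1.2.

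Cdh15 (ENSMUSG00000031962, plus strand of chromosome 8 from 122847966 to 122867397) encodes M-cadherin, an adhesion molecule of muscle cells and their precursors. Its level was 442, 245 and 300 CPM in si Ctrl, 748, 686 and 519 CPM in si mH2A1.1, and 612, 301 and 265 CPM in si mH2A1.2. Replicate 1 held the highest value in each group. The si mH2A1.1 samples lay above every si Ctrl sample and overlapped with si mH2A1.2 through its replicate 1. In both of these groups Cdh15 had the widest spread of the tested members, with a coefficient of variation of 31.0% in si Ctrl and 48.6% in si mH2A1.2.

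The log2 fold change of Cdh15 was 0.99 ± 0.32 with si mH2A1.1, a fold of 1.98 with a 95% interval of 1.21 to 3.23, at an adjusted p of 0.0708, which did not pass. The call depended on the setting, and among others the comparison passed with DESeq2 (adjusted p = 0.0126), without the filter on low counts (0.0227), with only the 6 samples of the comparison (0.0341) and without si mH2A1.2 replicate 1 (0.0221). Between the knockdowns the log2 difference was 0.73 (adjusted p = 0.125), and it passed without that same replicate (adjusted p = 0.0117). With si mH2A1.2 against si Ctrl the log2 fold change was 0.25 (95% interval -0.45 to 0.96, adjusted p = 0.762), and it turned to -0.22 (adjusted p = 0.770) without si mH2A1.2 replicate 1. Fits with the replicate block, in which Cdh15 passed in both comparisons with si mH2A1.1, are given at the end.

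Cdh2 (ENSMUSG00000024304, minus strand of chromosome 18 from 16588877 to 16809246) encodes N-cadherin. Its level was 110, 107 and 156 CPM in si Ctrl, 154, 125 and 162 CPM in si mH2A1.1, and 159, 141 and 174 CPM in si mH2A1.2. The higher si Ctrl sample fell within both knockdown groups. Cdh2 differed from si Ctrl by 0.24 on the log2 scale in si mH2A1.1 (95% interval -0.11 to 0.60, adjusted p = 0.342) and by 0.35 in si mH2A1.2 (-0.01 to 0.70, adjusted p = 0.332). The ratio of Cdh15 to Cdh2 was 4.76 to 10.0 in si Ctrl, 7.95 to 13.6 in si mH2A1.1 and 3.78 to 9.53 in si mH2A1.2, overlapping between all groups, and in si Ctrl and si mH2A1.2 replicate 1 held the highest value.

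The junctional adhesion molecules are immunoglobulin superfamily proteins that pair at cell contacts. Jam2 (ENSMUSG00000053062, plus strand of chromosome 16 from 84774123 to 84825928) had 109, 121 and 119 CPM in si Ctrl, 147, 139 and 139 CPM in si mH2A1.1, and 109, 99.2 and 79.1 CPM in si mH2A1.2. The si mH2A1.1 samples were all above those of si Ctrl. The si mH2A1.2 samples were all below them, the highest by a margin lost in rounding to 109 CPM. Neither difference from si Ctrl passed the test, with log2 fold changes of 0.29 ± 0.12 (adjusted p = 0.129) for the former and -0.28 ± 0.12 (adjusted p = 0.263) for the latter.

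Between the knockdowns, Jam2 was 1.48-fold higher with si mH2A1.1 (95% interval 1.24 to 1.77, log2 difference 0.57, adjusted p = 0.00762). This call was kept under all 17 alternative settings, with adjusted p values of up to 0.0300. Jam2 was also among the members with the least spread in si mH2A1.1, with a coefficient of variation of 3.35%, against 15.7% in si mH2A1.2.

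Jam3 (ENSMUSG00000031990, minus strand of chromosome 9 from 27097384 to 27155421) encodes the partner of Jam2. Its level was 25.9, 29.9 and 36.3 CPM in si Ctrl, 41.1, 24.9 and 29.3 CPM in si mH2A1.1, and 32.8, 33.4 and 34.8 CPM in si mH2A1.2, and the groups overlapped. The log2 fold changes were 0.05 (95% interval -0.35 to 0.44, adjusted p = 0.882) and 0.13 (-0.26 to 0.53, adjusted p = 0.789). Of its 3200 exon bases, 1159 are shared with the antisense gene Gm48796, which had 85 to 169 counts a sample, beside 970 to 1665 for Jam3. Whether the libraries kept strand is not given in the sources used here, and without it such reads cannot be told apart. The ratio of Jam2 to Jam3 had a mean of 2.03 ± 0.264 in si Ctrl, a mean of 2.46 ± 0.534 in si mH2A1.1 and of 1.51 ± 0.279 in si mH2A1.2.

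Adgrb1 and Adgrb3 encode BAI1 and BAI3, adhesion G protein-coupled receptors that act upstream of ELMO, Dock1 and Rac in myoblast fusion. Adgrb3 (ENSMUSG00000033569, minus strand of chromosome 1 from 25067476 to 25829707) had 15, 20 and 25 counts in si Ctrl, 20, 19 and 15 in si mH2A1.1, and 31, 22 and 23 in si mH2A1.2, at most 0.853 CPM. The si mH2A1.1 samples lay below those of si mH2A1.2 in CPM, with a log2 difference of -0.64 (95% interval -1.32 to 0.03, adjusted p = 0.158) that did not pass. Against si Ctrl the log2 fold changes were -0.27 (-0.96 to 0.41, adjusted p = 0.595) and 0.37 (-0.30 to 1.04, adjusted p = 0.618), with intervals that reach from 0.514-fold to 1.33-fold and from 0.812-fold to 2.05-fold.

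Adgrb1 (ENSMUSG00000034730, plus strand of chromosome 15 from 74516195 to 74589465) had 1, 0 and 3 counts in si Ctrl, 6, 4 and 5 in si mH2A1.1, and 2, 0 and 3 in si mH2A1.2. The si Ctrl and si mH2A1.2 samples were thus at or below 3 counts and the si mH2A1.1 samples just above. The gene did not pass the filter on low counts. When all genes were tested without that filter, its adjusted p was 0.389 in si mH2A1.1 and 0.992 in si mH2A1.2. No fold change is given at this depth.

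Myof (ENSMUSG00000048612, minus strand of chromosome 19 from 37899036 to 38043577) encodes myoferlin. Its level was 426, 450 and 421 CPM in si Ctrl, 571, 570 and 596 CPM in si mH2A1.1, and 448, 414 and 376 CPM in si mH2A1.2. The si mH2A1.1 samples stood above all others, and si Ctrl and si mH2A1.2 overlapped. In si Ctrl and si mH2A1.1, Myof had the narrowest spread of the members, with coefficients of variation of 3.55% and 2.55%.

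Myof rose with si mH2A1.1 by a log2 fold change of 0.42 ± 0.10 (95% interval 0.20 to 0.64, adjusted p = 0.0274) and was 1.40-fold higher than with si mH2A1.2 (log2 difference 0.49 ± 0.10, adjusted p = 0.00800). With si mH2A1.2 against si Ctrl the log2 fold change was -0.07 (95% interval -0.29 to 0.15, adjusted p = 0.810). The call against si Ctrl was lost without si Ctrl replicate 1, 2 or 3, si mH2A1.1 replicate 1 or 3, or si mH2A1.2 replicate 2, at adjusted p values of 0.0528 to 0.0922, with log2 fold changes of 0.39 to 0.45 over all omissions. The call against si mH2A1.2 was kept in all of them.

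The 250 bases before the start of Myof are shown because it is the member that rose and has an entry among the RefSeq promoters of GRCm38.p6, in which 4 of the 10 members were found (Adgrb3, Cdh15, Dysf and Myof). They lie at chr19:38043578-38043827 on the minus strand, and matches to the E-box CANNTG, the motif of myogenic bHLH factors, would be in capitals.
Myof promoter: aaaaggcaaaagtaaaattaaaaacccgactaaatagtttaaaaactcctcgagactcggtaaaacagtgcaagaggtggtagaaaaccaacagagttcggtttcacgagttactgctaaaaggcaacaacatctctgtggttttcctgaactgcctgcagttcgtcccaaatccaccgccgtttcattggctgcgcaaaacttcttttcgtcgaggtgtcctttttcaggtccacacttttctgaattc
CANNTG reads alike on both strands, overlapping matches were counted, and none lies in this window or in the windows of equal length of the 2 Dysf starts. The Adgrb3 window holds 2 matches and that of Cdh15, which lies inside the first exon of Cdh15 in GENCODE M21, holds 3. At least 1 match was in 66.2% of the 32851 promoters of this table.

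Dysf (ENSMUSG00000033788, plus strand of chromosome 6 from 84008590 to 84211060) encodes dysferlin. Its level was 144, 109 and 156 CPM in si Ctrl, 134, 116 and 119 CPM in si mH2A1.1, and 141, 111 and 131 CPM in si mH2A1.2. All groups overlapped. The log2 fold changes were -0.14 (95% interval -0.46 to 0.17, adjusted p = 0.531) and -0.09 (-0.40 to 0.22, adjusted p = 0.827). Of its 8328 exon bases, 352 are shared with the antisense gene Gm15475 (25 to 122 counts) and 105 with Gm33024 (3 to 17 counts), beside 4090 to 6037 counts for Dysf. The ratio of Myof to Dysf was 1.96, 2.73 and 1.79 in si Ctrl, 2.82, 3.24 and 3.31 in si mH2A1.1, and 2.09, 2.46 and 1.90 in si mH2A1.2, so that the si mH2A1.1 samples lay above both other groups, next to si Ctrl replicate 2.

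**Figure D4:**
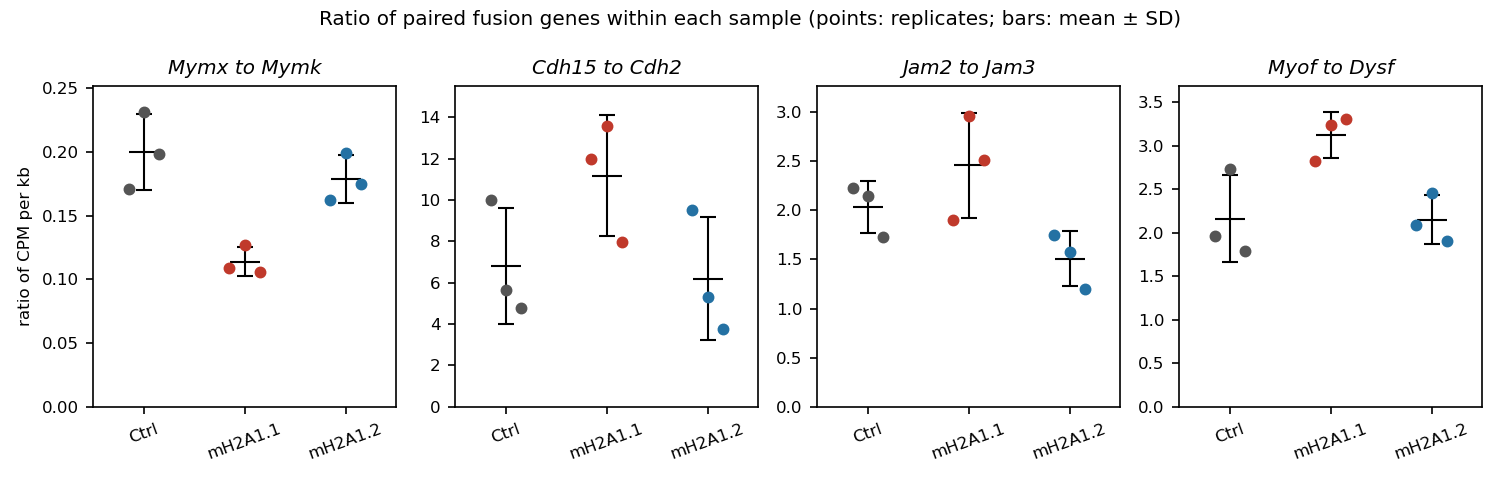
Ratio of CPM per kb between related fusion genes within each sample (linear axes from 0), with replicates as points and the mean ± SD as bars. Mymx to Mymk is 0.114 ± 0.0112 in si mH2A1.1 against 0.200 ± 0.0299 in si Ctrl, Myof to Dysf is 3.12 ± 0.265 against 2.16 ± 0.501, and the other pairs overlap between si mH2A1.1 and si Ctrl.

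The genes around the fusion machinery were read in 5 lists of 80 genes in all, of which 75 were tested. With si mH2A1.1 against si Ctrl, 9 rose and 2 fell, which is 14.7% of those tested beside 11.1% of all genes. With si mH2A1.2, 4 rose and 3 fell, 9.33% beside 2.35%. The lists had a median log2 fold change of 0.03 in the first comparison, and in the second it rounds to 0. In the direct comparison 16 were higher and 13 lower with si mH2A1.1, 38.7% beside 22.5%. DESeq2 called 19 of the 80 in si mH2A1.1 and 11 in si mH2A1.2. Over all 37475 genes with a count it called 3354 and 1113.

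Of 21 genes of Rac and actin signalling, all tested, 1 was called in each knockdown, which is 4.76% of the list. The share of all tested genes was 11.1% for the macroH2A1.1 knockdown and 2.35% for the macroH2A1.2 knockdown. DESeq2 called 4 and 2 of the list in the same order, and limma-voom 1 in each. Nckap1, a subunit of the WAVE complex that drives branched actin, rose with si mH2A1.1 (206 ± 6.56 CPM in si Ctrl, 259 ± 22.4 CPM, log2 fold change 0.33, adjusted p = 0.0491). Its call was lost in 8 of the 9 omissions of a sample, most clearly without si mH2A1.1 replicate 3 (adjusted p = 0.146). Rnd3, an atypical GTPase that acts on the actin cytoskeleton, rose with si mH2A1.2 from 45.3 ± 7.13 to 72.3 ± 8.14 CPM (log2 fold change 0.68, adjusted p = 0.0389) and had 38.1 ± 4.98 CPM in si mH2A1.1. Its call was lost in 5 omissions, with the highest adjusted p, 0.145, without si Ctrl replicate 1. The list had a median log2 fold change of 0.03 in si mH2A1.1 and of -0.06 in si mH2A1.2.

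Of the 20 other cell-surface fusion proteins, 17 were tested. With si mH2A1.1, 1 fell, 5.88% beside 11.1% of all tested genes. It was Itga3, an integrin alpha subunit, which went from 89.5 ± 13.8 to 46.6 ± 11.4 CPM (log2 fold change -0.94, adjusted p = 0.0142). The call was lost without si Ctrl replicate 2 (adjusted p = 0.0608). With si mH2A1.2, 3 rose, 17.6% beside 2.35%. Boc, a co-receptor of hedgehog and promyogenic signalling, rose from 7.93 ± 1.49 to 15.2 ± 0.677 CPM (log2 fold change 0.94, adjusted p = 0.0202), and its relative Cdon from 277 ± 56.6 to 465 ± 29.3 CPM (0.75, adjusted p = 0.0437).

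Megf10, an engulfment receptor also known from satellite cells, rose with si mH2A1.2 from 207 ± 34.9 to 333 ± 25.4 CPM (log2 fold change 0.69, adjusted p = 0.0347). In si mH2A1.1, Boc had 5.92 ± 0.637 CPM, Cdon 240 ± 35.8 CPM and Megf10 251 ± 29.2 CPM, none of which passed against si Ctrl. The direct comparison called 10 of the 17, 2 higher and 8 lower with si mH2A1.1, which is 58.8% beside 22.5% of all tested genes. Some of these 10 calls were lost in up to 5 of the 9 omissions of a sample, with adjusted p values of up to 0.107. The list's median was -0.43 in the direct comparison, and against si Ctrl -0.18 in si mH2A1.1 and 0.22 in si mH2A1.2. The si mH2A1.2 calls of Boc, Cdon and Megf10 were lost in 4, 8 and 6 of the 9 omissions of a sample, with highest adjusted p values of 0.0680 for Boc without si mH2A1.2 replicate 2, and of 0.139 and 0.137 for the other two without si Ctrl replicate 1.

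All 9 intracellular partners of cadherins and junctional adhesion molecules were tested, with a median log2 fold change of 0.16 in si mH2A1.1 and of 0.08 in si mH2A1.2. Ctnnb1, the beta-catenin that binds the cadherin tail, rose with si mH2A1.1 from 453 ± 22.9 to 654 ± 18.3 CPM (log2 fold change 0.53, adjusted p = 0.0108; 0.0545 without si Ctrl replicate 2) and had 479 ± 26.3 CPM in si mH2A1.2.

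Of 23 other ferlin and membrane repair genes, 21 were tested, and 4 rose and 0 fell with si mH2A1.1, with a median log2 fold change of 0.14. That is 19.0% called, beside 11.1% of all tested genes. Ano5, a membrane protein whose loss causes muscular dystrophy, rose 4.37-fold from 12.7 ± 5.44 to 55.7 ± 8.45 CPM (adjusted p = 0.0185). Anxa1, an annexin that binds injured membrane, rose from 412 ± 40.9 to 708 ± 102 CPM (log2 fold change 0.78, adjusted p = 0.00723), a call kept in all omissions.

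Ehd4, an endocytic ATPase, rose with si mH2A1.1 from 196 ± 33.3 to 297 ± 39.4 CPM (log2 fold change 0.60, adjusted p = 0.0385), and the annexin Anxa6 from 645 ± 24.7 to 903 ± 88.8 CPM (0.48, adjusted p = 0.0258). The calls of Ano5, Ehd4 and Anxa6 were lost in 4, 5 and 5 of the 9 omissions, with the highest adjusted p values, 0.0760, 0.139 and 0.0976, all without si Ctrl replicate 2. With si mH2A1.2, 0 of the 21 passed edgeR's test, beside 2.35% of all tested genes. At an unadjusted p under 0.05 there were 5, with 1 called by DESeq2 and 0 by limma-voom, and the median was -0.04.

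Of the 7 myogenic transcription factors, 2 rose and 1 fell with si mH2A1.1, 42.9% beside 11.1% of all tested genes. With si mH2A1.2, 2 fell, 28.6% beside 2.35%. Myf6 (MRF4) rose from 3.69 ± 0.493 to 13.8 ± 1.39 CPM with si mH2A1.1 (log2 fold change 1.90, adjusted p = 0.000347) and fell to 1.18 ± 0.0827 CPM with si mH2A1.2 (-1.64, adjusted p = 0.00481), and both calls were kept in all omissions. Myog (myogenin) fell with si mH2A1.1 from 665 ± 69.0 to 421 ± 75.8 CPM (-0.66, adjusted p = 0.0204; lost in 4 omissions, up to 0.0662 without si mH2A1.1 replicate 3). Myf5 fell with si mH2A1.2 from 46.3 ± 6.46 to 25.9 ± 6.45 CPM (-0.84, adjusted p = 0.0422; lost in all 9 omissions, up to 0.149 without si Ctrl replicate 1), and Mef2a rose with si mH2A1.1 from 320 ± 22.9 to 454 ± 13.8 CPM (0.50, adjusted p = 0.0176; lost in 2 omissions, up to 0.0770 without si Ctrl replicate 2).

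**Figure D5:**
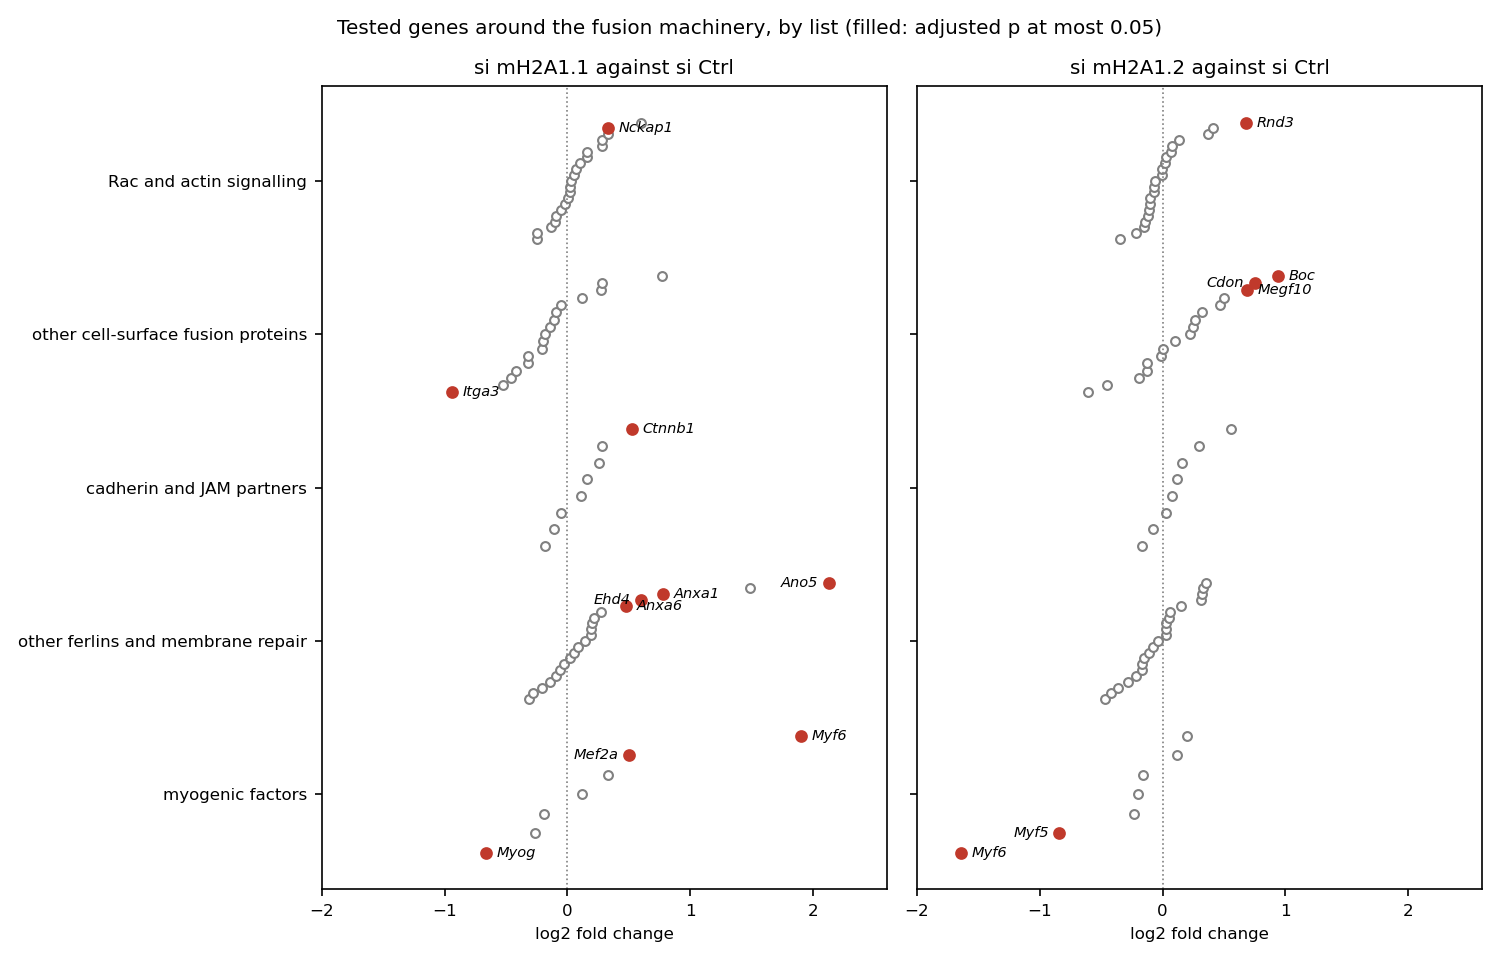
Log2 fold change against si Ctrl of tested genes around the fusion machinery, 1 point a gene, grouped by list; filled and named points passed the adjusted p of 0.05. With si mH2A1.1 the filled points reach from Itga3 at -0.94 to Ano5 at 2.13, and with si mH2A1.2 from Myf6 at -1.64 to Boc at 0.94.

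The genes whose pattern over the 9 samples was most like each member were taken by the root mean square difference of the centred log2 CPM, among tested genes of at least 1 CPM on average. For Mymx, whose own values deviated by 0.43 from their mean on this measure, they were Prune1 (0.12), Rps14 (0.12) and Gm28042 (0.13). For Myof, which deviated by 0.23, they were Kat2b (0.062), E130311K13Rik (0.070) and Ift22 (0.074). For Cdh15, with the largest deviation at 0.59, they were Itgb6 (0.14), Ror1 (0.17) and Olfml2b (0.18). These values describe likeness over 9 samples that share 3 groups.

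For Jam2 (0.27) the nearest genes were 1110038F14Rik (0.076), Trim16 (0.094) and Acad8 (0.10), and for Jam3 (0.22) Tedc2 (0.10), Urm1 (0.10) and Gm44429 (0.11). Cdh2 (0.24) had Fbxo10 (0.060), Gm15181 (0.089) and Zfp715 (0.094). The members with the least variation were Mymk and Dysf. Mymk (0.16) had Kremen1 (0.073), Bcl7b (0.085) and Mtmr1 (0.086), and Dysf (0.17) had Heatr3 (0.059), Psd (0.064) and Gm38099 (0.077). For Adgrb3 (0.33), where the values rest on 15 to 31 counts, they were Ucp2 (0.11), mt-Nd3 (0.13) and Gm42429 (0.14). No member was among the nearest genes of another.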

How the data were processed

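Estimated counts of 9 C2C12 samples (3 groups of 3, grouped by the sample labels) were analysed. The authors sequenced polyA mRNA as single reads of 50 bp, quantified it with Salmon on GRCm38 and imported it into DESeq2; the submitters' processing notes name mm10. The deposited table of estimated counts holds whole numbers per gene without normalization. The other deposited table, a normalized signal, is these counts divided by 1 size factor per sample (0.950 to 1.13), as checked from the ratio, and was not used further. Strand and annotation release are not given in the sources used here, and GENCODE M21 names 52762 of the 52780 genes.

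All 9 samples entered 1 model in edgeR 4.0.16 (R 4.3.3): legacy quasi-likelihood test, TMM scaling, filterByExpr (19545 genes), Benjamini-Hochberg adjustment over all of them and an adjusted p of at most 0.05 for a call, for 3 contrasts. CPM are on the TMM-scaled totals, and intervals are 95%. The scripts were tested on simulated data, whose values are not given. Counting floors of 3 counts cover counting error only. Alternatives were DESeq2 1.42.0, limma-voom (limma 3.58.1), edgeR's newer form, DESeq2 size factors, other filters, the replicate block, fewer samples and a stricter call rule.

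Replicate numbers were checked as pairs by the correlation of deviations from the group means. Same-numbered si Ctrl and si mH2A1.2 samples had r of 0.20 to 0.33, a hint of pairing from the data. The sample names run on consecutively within each replicate number, and the labels do not say what the number marks. The main model used the groups only, so the calls in the results ignore this pairing, and the replicate block was an alternative. With the block, 1005 instead of 460 genes were called in the contrast of si mH2A1.2 with si Ctrl, and 0 members either way.

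Members and lists were chosen with earlier results of these data known. Named genes were all members; of each pathway list up to 4 genes called in either knockdown against si Ctrl, by size; of each marker list the summed level and up to 2 of its most abundant genes; and the 3 genes nearest to each tested member. The result of 1 pathway gene is counted in the lists but not reported here by name or in the plots.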

Additional observations from a re-analysis of the deposited data

How the results depend on the processing

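Each of the 27 log2 fold changes of the members was recomputed under 17 alternatives, 459 values in all. Of these, 424 kept their direction and side of the threshold, 14 lost a call, 7 gained a call (all Cdh15) and 14 changed sign, none of those with a call. With the replicate block, the log2 fold change of Mymk with si mH2A1.1 against si Ctrl turned from -0.02 to 0.0032. The other sign changes came from leaving out 1 sample. With si mH2A1.1 against si Ctrl, Mymk then ranged from -0.11 to 0.13 and Jam3 from -0.17 to 0.19. With si mH2A1.2 against si Ctrl, Mymk ranged from -0.03 to 0.24, Mymx from -0.26 to 0.06, Cdh15 from -0.22 to 0.53 and Dysf from -0.23 to 0.01. Between the knockdowns, Mymk ranged from -0.17 to 0.01, Jam3 from -0.31 to 0.06 and Dysf from -0.15 to 0.02.

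Counts follow in the order macroH2A1.1 knockdown against control, macroH2A1.2 knockdown against control, and knockdown against knockdown. A stricter call (adjusted p under 0.01, fold changes of 0.8 or more on the log2 scale in either direction) left 0, 0 and 0 members, 352, 35 and 1248 genes, and 1, 1 and 9 pathway genes, against 2, 0 and 3 members, 2171, 460 and 4397 genes and 11, 7 and 29 pathway genes. DESeq2 called 3354 and 1113 genes and 19 and 11 pathway genes in the comparisons with si Ctrl. With only the samples of the contrast, 4 pathway genes were called with si mH2A1.2. With the replicate block, 4065 and 1005 genes were called in the comparisons with si Ctrl and the members called were 3, 0 and 4, the added gene being Cdh15 (log2 fold change 1.02 and adjusted p = 0.00797 against si Ctrl, 0.82 and 0.0119 between the knockdowns). Same-numbered samples of si Ctrl and si mH2A1.1 had r of 0.08 to 0.10, those of si mH2A1.1 and si mH2A1.2 0.09 to 0.12, and each sample correlated best with its own number, a hint from the data and not from the design.

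Leaving out 1 sample gave 0 to 3, 0 to 0 and 2 to 4 members, 605 to 2928, 74 to 544 and 2251 to 4616 genes, and 2 to 13, 1 to 7 and 18 to 30 pathway genes, with fewer samples to test. With si mH2A1.1 against si Ctrl, 0 members were called without si Ctrl replicate 2 or 3 or si mH2A1.1 replicate 1 or 3, and 1 without si Ctrl replicate 1 or si mH2A1.2 replicate 2. A group left with 2 samples is assumed to vary like the others. Small changes of Adgrb1 and Adgrb3 are limited by their counts.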
